A study of Mus musculus with 3 samples.

Results

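Zinc finger protein genes that carry the mouse symbol Zfp and a number were described in RNA bound to chromatin, from bone-marrow-derived macrophages treated with lipid A. Members were selected on their expected counts in these libraries: protein-coding genes of that symbol entered when the mean over 3 libraries was 100 or more. Expected counts are reads assigned to a gene, with shared reads divided among candidates. Of 391 such genes measured, 158 reached the minimum, or 40.4%, among 55536 annotated genes in all. Zfp36, Zfp36l1 and Zfp36l2, which are CCCH proteins that bind mRNA, were left out by the rule. The count minimum selected the members, so their level above it is a description and not a finding.

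All 3 libraries belonged to 1 group. The cells were C57BL/6J primary macrophages grown from marrow and given 100 ng/ml lipid A for 30 min, the part of endotoxin that activates TLR4. RNA of the chromatin fraction was depleted of ribosomal RNA and sequenced as total RNA, from 1000 ng of RNA in library 1, 250 ng in library 2 and 500 ng in library 3. Unstimulated cells were not analysed here, so no value below is a response to lipid A. The labels call the libraries biological replicates of the same donor record and give neither sex nor age. Spreads therefore describe these libraries and may be technical.

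The libraries held 16205704 to 17033725 expected counts on annotated genes. All 6 macrophage markers averaged 10 or more expected counts, with Csf1r the highest at 202 TPM (transcript abundance scaled for length, as a share of all transcripts). None of the 3 T cell, 3 B cell or 3 neutrophil markers reached that count, and Cd3e and Cd3g were listed at 0 in every library. Of the endothelial markers, 2 of 3 reached it, with Kdr the highest at 1.18 TPM, as did 2 of 3 stromal markers, with Col3a1 the highest at 0.24 TPM.

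Most Zfp proteins are nuclear and bind DNA through C2H2 fingers, short loops in which a pair of cysteines and a pair of histidines hold a zinc ion. Many also carry a KRAB box, which recruits the corepressor TRIM28 and through it the histone methyltransferase SETDB1. KRAB zinc finger proteins are known for silencing transposable elements and protecting imprints, and their genes lie in clusters of recent duplicates. Other Zfp proteins act in RNA handling, translation or the ubiquitin pathway, many of them with fingers of the same kind.

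The following units show what a C2H2 finger looks like at the base level in Zfp263, Zfp445 and Zfp62, which rank 1, 3 and 4 by mean TPM. Zfp638, which ranks 2, held no finger of 84 bases within 1 exon. Each is the gene's first finger of 84 bases that ends in the linker between fingers, a stretch of 84 coding bases of a GENCODE M21 transcript, 5′ to 3′, with the codons of the 2 cysteines and 2 histidines in capitals. The Zfp263 unit lies at chr16:3749122-3749205 (mm10, plus strand), the Zfp445 unit at chr9:122852892-122852975 (minus strand) and the Zfp62 unit at chr11:49215537-49215620 (plus strand), each within 1 coding exon.
Zfp263: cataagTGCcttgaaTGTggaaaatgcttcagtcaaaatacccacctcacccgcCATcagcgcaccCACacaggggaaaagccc
Zfp445: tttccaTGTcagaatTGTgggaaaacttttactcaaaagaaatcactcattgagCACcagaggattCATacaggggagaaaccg
Zfp62: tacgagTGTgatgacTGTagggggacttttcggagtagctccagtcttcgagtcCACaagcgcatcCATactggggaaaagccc
The nearest finger of another measured Zfp gene differed at 23 of the 84 bases for the Zfp263 unit, at 23 for the Zfp445 unit and at 25 for the Zfp62 unit.

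Genes of chromosome 4 show the opposite case. The first finger of Zfp991 (chr4:147178885-147178968, plus strand) is set beside the closest finger of Zfp993 (chr4:146657938-146658021, plus strand) and of Zfp992 (chr4:146466541-146466624, plus strand), with a base that differs from Zfp991 in capitals.
Zfp991: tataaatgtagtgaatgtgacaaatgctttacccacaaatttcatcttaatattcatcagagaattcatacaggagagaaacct
Zfp993: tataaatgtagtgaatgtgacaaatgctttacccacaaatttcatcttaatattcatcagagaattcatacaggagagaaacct
Zfp992: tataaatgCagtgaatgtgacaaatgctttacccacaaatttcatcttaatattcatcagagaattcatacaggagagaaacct
The Zfp993 unit had 0 different bases and the Zfp992 unit had 1, so a read inside the first of these pairs cannot be told apart between Zfp991 and Zfp993.

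Zfp transcripts were a small part of the counts in chromatin RNA, as the members were of the genes: 158 of 55536 annotated, and of 7063 protein-coding genes at the minimum. A level in bulk RNA cannot tell fewer expressing cells from less RNA per cell. The 158 members held 105812, 108072 and 115862 expected counts in libraries 1, 2 and 3, which was 0.67% ± 0.04 (SD, n = 3) of all counts. The 10 members with the most counts held 35.3% ± 3.1 of these (SD, n = 3). The median member had 4.07 TPM in library 1, 5.28 in library 2 and 8.93 in library 3. The median of the 6905 other protein-coding genes with a mean count of at least 100 was 7.95, 9.67 and 14.1 TPM in the same libraries. As means, these were 6.09 ± 2.53 TPM for Zfp genes and 10.6 ± 3.2 TPM for the other genes (SD, n = 3). Of the members, 47 averaged 10 TPM or more, which was 29.7%, against 3599 of the other genes, or 52.1%. The quartiles of the members were 3.40 and 12.3 TPM.

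TPM was highest in library 3 for 154 of the 158 members. Genes with an effective length under 300 nt took 77.9% of TPM in library 1, 72.5% in library 2 and 62.3% in library 3, and TPM rescaled over longer genes gave a median of 20.4 ± 2.8 for the members (SD, n = 3). CPM, or counts scaled to the library total with TMM factors and without length, spread the highest value over the libraries: it fell in library 1 for 31 members, in library 2 for 51 and in library 3 for 76. The median deviation of members from their own mean was -0.07 in library 1, 0.03 in library 2 and 0.07 in library 3 (log2 CPM). The other protein-coding genes had median deviations of 0.01, 0.06 and -0.07 in these libraries. The highest and lowest library of a member differed by a median of 0.37 in log2 CPM. Counts or log2 CPM are given below for some genes only. For genes given in TPM alone, a higher value in library 3 is therefore not read as a difference of that gene.

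Zfp263, a DNA-binding protein with a SCAN domain and C2H2 fingers, had the highest level. It is annotated on the plus strand of chromosome 16 at positions 3744093 to 3750790 (mm10). It had 119.5, 105.5 and 120.3 TPM in libraries 1, 2 and 3, or 115 ± 8 TPM (SD, n = 3). Its expected counts were 9432, 7582 and 5944, or 9.26, 8.86 and 8.37 in log2 CPM. Library 3 was thus the lowest by counts and the highest by TPM. It ranked 266 by mean TPM among 7063 protein-coding genes at the minimum, Zfp genes included. Zfp638, a nuclear protein that in human cells helps silence unintegrated retroviral DNA, was next in every library with 50.1, 69.2 and 87.0 TPM.

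Below these, neighbours in the order overlapped. Zfp445, a KRAB protein that protects imprints, had 34.9, 43.4 and 61.6 TPM in libraries 1, 2 and 3. Zfp62 had 35.8, 36.0 and 59.5 TPM, and Zfp407, which in adipocytes supports PPARγ target genes, had 34.5, 36.6 and 50.1 TPM. Zfp445 was above Zfp407 in every library, and the place of Zfp62 among the 3 genes changed between libraries. Differences between these genes were not tested. By counts Zfp407 was second among all members, with 5508, 5685 and 4799 in these libraries.

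**Figure D1:**
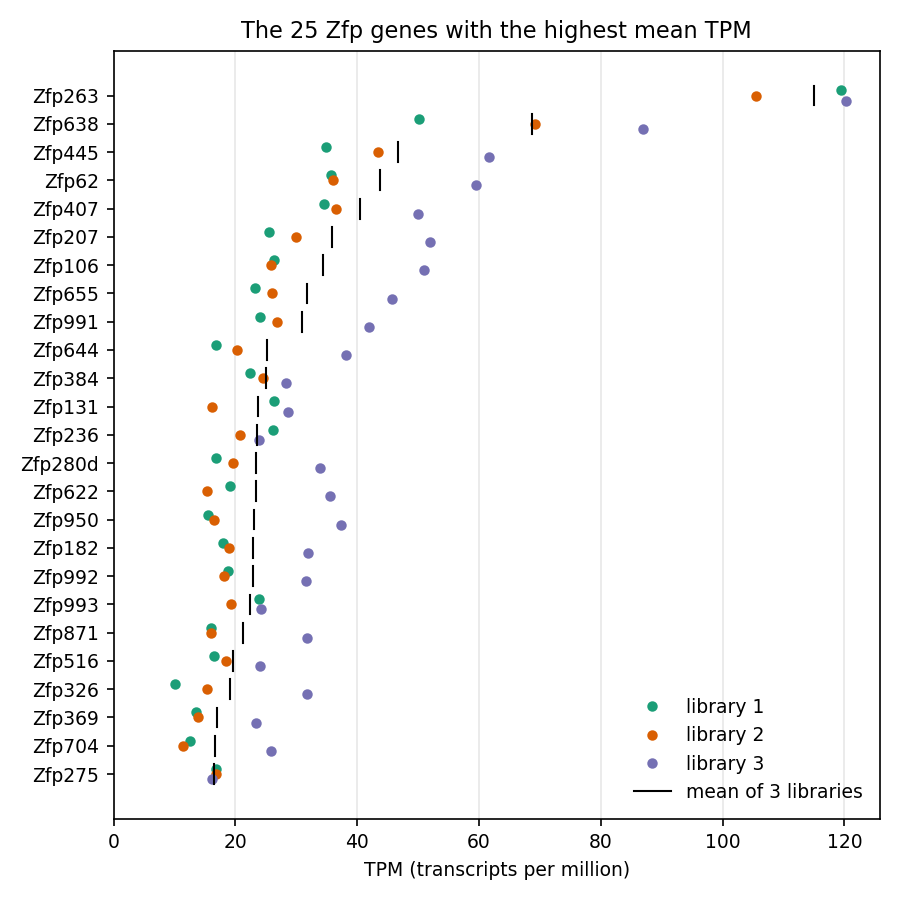
TPM (x axis) of the 25 Zfp genes with the highest mean, one row per gene. Points are libraries 1, 2 and 3 and the bar is their mean; Zfp263 at 115 TPM lies apart from Zfp638 at 68.8 TPM, and library 3 is the highest point in most rows.

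The next genes by level have several kinds of roles. Zfp207, which binds microtubules and loads BUB3 at kinetochores, had 25.5, 30.0 and 51.9 TPM in libraries 1, 2 and 3. Zfp106, an RNA-binding protein needed by motor neurons, had 26.3, 25.8 and 51.0 TPM. Zfp655, which is known to interact with the signalling protein VAV1, had 23.3, 26.1 and 45.8 TPM. For each of these, library 3 stood above the others in TPM, but their log2 CPM differed by 0.18, 0.32 and 0.06 between the highest and lowest library. Zfp991 had 24.1, 26.8 and 42.0 TPM, but 97.3, 76.3 and 126.8 TPM in the second quantification described below, so its level depends on the quantification. Zfp644, a partner of the H3K9 methyltransferases G9a and GLP, had 16.8, 20.3 and 38.2 TPM. Zfp384, a factor that binds matrix gene promoters in bone cells, had 22.4, 24.5 and 28.4 TPM. Zfp131, a BTB domain factor, had 26.4, 16.2 and 28.6 TPM, with its lowest value in library 2.

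At the other end, the 3 members with the fewest counts were Zfp24, Zfp943 and Zfp956. Zfp24 had 71, 110 and 123 expected counts in libraries 1, 2 and 3, a mean of 101. Zfp943 had 86, 71 and 154, and Zfp956 had 81, 109 and 134. The 3 Zfp genes just under the minimum were Zfp597 with a mean of 99.95, Zfp809 with 99.7 and Zfp316 with 98.7. Single libraries of Zfp24, Zfp943 and Zfp956 therefore lay below 100, and the lowest count of any member was 71. Of the 233 genes under the minimum, 139 had a mean of at least 10 and 94 had less, among which 32 were listed at 0 in every library.

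Of 10 listed Zfp genes that act on RNA, translation or the spindle, 9 reached the minimum, between 3.28 and 68.8 TPM with a median of 19.1. The role lists, here and below, were picked by hand with earlier results known and do not hold every gene of a role. Over all 391 Zfp genes measured, 40.4% reached the minimum, and the member median was 6.09 TPM. Whether a listed role differs from the other Zfp genes was not tested. Zfp638, Zfp207 and Zfp106 led this list. Zfp622, a factor in maturation of the large ribosomal subunit, had 19.1, 15.3 and 35.6 TPM in libraries 1, 2 and 3 and was lowest in library 2 by counts too, with 1385, 991 and 1638. Zfp326, part of a complex that links RNA polymerase II elongation to splicing, had 10.01, 15.3 and 31.8 TPM. Zfp318, which in B cells allows the choice of IgD over IgM, had 7.25, 7.16 and 16.5 TPM. Zfp598, the ubiquitin ligase that senses collided ribosomes, had 440, 448 and 522 expected counts, a range of 0.08 in log2 CPM. Zfp346, which binds double-stranded RNA, averaged 8.82 ± 5.69 TPM and Zfp385a, an mRNA-binding partner of p53, 3.28 ± 1.56 TPM (SD, n = 3 each). Zfp830 fell under the minimum with a mean of 53.3.

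In the ubiquitin and SUMO pathway all 4 listed genes reached the minimum. Zfp451, a SUMO ligase, led with 9.69, 11.8 and 18.2 TPM in libraries 1, 2 and 3, and Zfp91, a ubiquitin ligase for the NF-κB kinase NIK, had 5.94, 8.44 and 12.7 TPM. Zfp746, a substrate of parkin also called PARIS, averaged 6.98 ± 3.38 TPM (SD, n = 3).

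Of 14 listed chromatin regulators and factors with a known target, 12 reached the minimum, with a median of 8.90 TPM. After Zfp263, Zfp644 and Zfp384 came Zfp410, which activates the gene of the remodeller CHD4, with 10.2, 14.0 and 18.6 TPM in libraries 1, 2 and 3. Zfp335, a nuclear receptor coactivator complex subunit needed for T cell maturation, had 9.31, 12.6 and 14.7 TPM. Zfp148, a GC-box-binding factor, averaged 9.06 ± 2.81 TPM and Zfp217, a subunit of corepressor complexes with LSD1, 8.74 ± 3.79 TPM (SD, n = 3 each). Zfp592, Zfp687 and Zfp532, whose human proteins form a complex with ZMYND8, averaged 6.86 ± 1.75, 5.90 ± 1.42 and 2.61 ± 0.99 TPM (SD, n = 3 each). Zfp281, a pluripotency factor, had 1.75, 2.90 and 3.73 TPM, and Zfp143, which drives snRNA promoters, had 1.26, 2.44 and 3.27 TPM. Zfp462 and Zfp827 did not reach the minimum, with means of 45.7 and 50.7.

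The retroelement and imprint list held 7 genes, of which 3 reached the minimum: Zfp932, Zfp568 and Gm15446. Zfp445, named above as a protector of imprints and at a mean of 46.6 TPM, was not on this list. Zfp932, a repressor of endogenous retroviruses, had 349, 424 and 438 expected counts in libraries 1, 2 and 3, or 13.6 ± 4.4 TPM (SD, n = 3). Its relative Gm15446, which lacks the Zfp symbol and is no member, had 119, 166 and 144. Zfp568, which represses a placental Igf2 promoter, had 150, 200 and 189. Zfp809, which recognises the primer binding site of murine leukaemia virus, had 80, 98 and 121 and stayed just under the minimum. Zfp57, the imprint protector of embryonic cells, had 2, 0 and 0 expected counts.

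Of 9 listed genes known from development and lineage choice, 5 reached the minimum. Zfp516, a partner of PRDM16 in brown fat, had 16.5, 18.5 and 24.1 TPM in libraries 1, 2 and 3, and Zfp703, a corepressor in breast epithelium, had 10.2, 9.32 and 22.3 TPM. The level of Zfp516 depends on the quantification, with 63.5, 58.5 and 100.8 TPM in the second one described below. Zfp609, a NIPBL and Integrator partner, averaged 3.71 ± 1.55 TPM. Zfp608, a repressor of Rag genes in thymocytes, averaged 3.65 ± 0.93 TPM and Zfp467, a regulator of fat against bone fate, 3.53 ± 1.26 TPM (SD, n = 3 each). The stem cell gene Zfp42 (Rex1) was listed at 0 in every library, and Zfp423, Zfp503 and Zfp521 had means of 0.33, 3.67 and 0.67 expected counts.

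The corepressor machinery of KRAB proteins was measured beside them. Of 12 listed genes, also picked by hand, 11 reached the same minimum, between 5.48 and 61.4 TPM with a median of 15.8. The 6905 other coding genes at the minimum had a median of 10.6 TPM. Trim28, the corepressor that KRAB boxes bind, had 8.78, 12.3 and 13.4 TPM in libraries 1, 2 and 3. Setdb1, the methyltransferase, had 11.5, 14.2 and 21.7 TPM. Cbx3, which encodes the HP1γ protein, was the exception with a mean of 38.3 expected counts.

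Of the 158 members, 69 held a KRAB A-box pattern in the first 300 residues of their longest annotated protein, or 43.7%, against 193 of all 391 measured Zfp genes, or 49.4%. The pattern is a strict run of letters that follows the core of the box, so that Zfp90, a known KRAB protein, did not match. Genes with the pattern reached the count minimum in 69 of 193 cases (35.8%), and genes without it in 89 of 198 (44.9%). The median TPM of members with the pattern was 2.86, 3.65 and 7.55 in libraries 1, 2 and 3, against 5.34, 7.06 and 10.7 for members without it. In each library the members with the pattern had the lower median. The split follows the pattern, so KRAB proteins that it misses, such as Zfp90, are in the group without it. Zfp445 had the pattern at 46.6 TPM. Of the 69 members with it, 13 had a mean of at least 10 TPM, against 34 of the 89 without it.

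In the longest protein of each gene, 150 of 158 members held at least 1 C2H2 pattern, read as C-X2-C-X12-H-X3 to 5-H, and the median was 9.5 patterns. All Zfp genes measured had a median of 10. Most patterns were found in Zfp619 with 33, Zfp142 with 32, and Zfp236 and Zfp729b with 30 each. Zfp619 had 2.04, 1.85 and 3.60 TPM in libraries 1, 2 and 3, Zfp142 had 4.70, 6.23 and 7.76, Zfp236 had 26.2, 20.7 and 23.9, and Zfp729b had 1.40, 1.97 and 2.54. Proteins rich in fingers were thus found among both low and high members, and Spearman's rho of finger number with mean TPM was -0.19 over the 158 genes, which share sequence and libraries.

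The 8 members with no such pattern were Zfp330, Zfp395, Zfp608, Zfp609, Zfp703, Zfp704, Zfp750 and Zfp839. With a wider spacing, 5 of them held a pattern, and Zfp330, Zfp703 and Zfp750 still held none. Zfp704 was the highest by mean TPM with 12.5, 11.3 and 25.9 in libraries 1, 2 and 3. Zfp330, a nucleolar protein, had 7.52, 14.7 and 17.3 TPM. Zfp839 averaged 7.99 ± 2.79 TPM and Zfp395 4.32 ± 1.57 TPM (SD, n = 3 each). Zfp750, a driver of keratinocyte differentiation, had 210, 202 and 193 expected counts, or 3.11 ± 0.76 TPM (SD, n = 3).

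In 106 of the 144 members with at least 2 patterns, all patterns lay in 1 exon, or 73.6%. Among measured Zfp genes under the minimum the same held for 198 of 214, or 92.5%. For 117 members that had fingers and whose most abundant transcript was coding, that transcript carried the full number in 111. In 5 it carried none: Zfp12, Zfp169, Zfp451, Zfp606 and Zfp777. In Zfp777 the transcript without fingers took 57.1% of the gene's TPM, and in Zfp451 it took 41.3%.

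Members lay on all autosomes and on X. Chromosome 7 held the most, 30 of 91 measured Zfp genes, followed by chromosome 17 with 17 of 45 and chromosome 13 with 12 of 36. On chromosome 4, 7 of 30 reached the minimum, or 23.3%, and on chromosome 18, 7 of 11, or 63.6%. Chromosome 18 held no gene with the KRAB pattern, and chromosome 17 held 36, of which 14 were members.

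**Figure D2:**
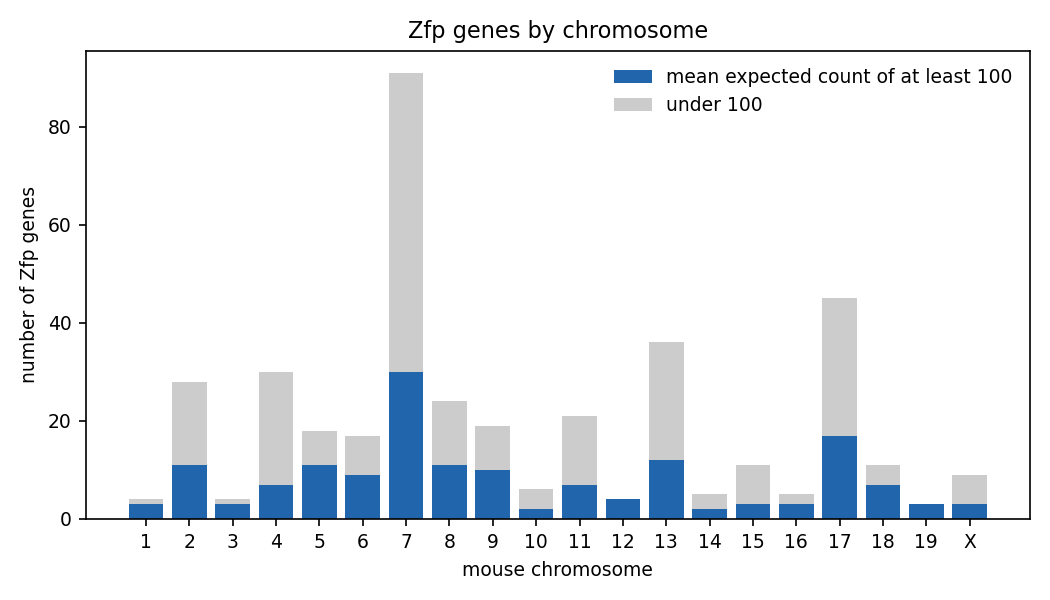
Number of measured Zfp genes (y axis) on each mouse chromosome (x axis). Blue bars are genes with a mean expected count of at least 100 and grey bars are the rest; chromosome 7 has 30 above the minimum of 91, chromosome 17 has 17 of 45.

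When members up to 200 kb apart were joined, 60 of 158 fell into 21 clusters, 12 of which were pairs. Of the 60, 42 held the KRAB pattern. Members in clusters had a median of 3.73 TPM, against 8.31 TPM for the 98 outside them. Each of the 3 largest clusters held 5 members. On chromosome 17 these were Zfp942, Zfp943, Zfp994, Zfp944 and Zfp758, all with the KRAB pattern, and Zfp942 had 6.99, 7.56 and 14.8 TPM in libraries 1, 2 and 3 where Zfp994 had 0.90, 1.41 and 3.23. On chromosome 6, Zfp398, Zfp282, Zfp956, Zfp777 and Zfp746 lay between 2.04 and 6.98 TPM, and on chromosome 7, Zfp420, Zfp568, Zfp260, Zfp382 and Zfp146 between 2.07 and 5.07 TPM. The neighbours Zfp871 and Zfp799 on chromosome 17 differed by the largest TPM fold in any cluster, with means of 21.2 and 1.29 TPM. Their mean expected counts were 3861.7 and 119.6. Zfp993 and Zfp992 had similar means of 22.5 and 22.9 TPM but not similar counts, with means of 325.6 and 2101.3. Their annotated exon lengths were 1275 and 4550 bases. They shared 91.9% and 49.9% of their sequence words, defined below, with other genes, so the levels of both depend on how shared reads were divided.

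Reads of recent duplicates are divided by the authors' quantification rather than observed. A median of 3.0% of a member's 31-base words was found on either strand of transcripts of another gene, 15 members shared none, and 22 shared over 25%. The highest shares were 93.9% in Zfp966, 91.9% in Zfp993, 90.5% in Zfp973, 88.0% in Zfp991 and 87.1% in Zfp433. All 3 libraries of Zfp991 had fractional counts, 1680.3, 1625.8 and 1747.9. Among the 22 members that shared over 25%, 0 had whole-number expected counts in every library (within 0.01), against 109 of the 136 others. For comparison, 109 of all 158 members (69.0%) and 4866 of 6905 other coding genes (70.5%) had whole counts. Of 136 members with an 84-base finger within 1 exon, 12 had a finger identical to one of another Zfp gene. In Zfp966 all 11 units had such a copy, in Zfp991 7 of 11, in Zfp992 6 of 11 and in Zfp993 2 of 2. The deposited credible interval of TPM had a median width of 30.2% of the posterior mean in the 22 genes that shared over 25%, against 33.4% in the 136 others. The median log2 difference of the second quantification over the first, described below, was 0.29 in the 22 and 0.31 in the others. Neither median was larger in the genes that shared more.

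Sharing was not always with a paralog. Zfp90 shared 77.9% of its words with Gm26786, which covers 79.5% of its exons on the opposite strand, and Zfp106 shared 25.2% with Gm26899. Exons of 40 members overlapped an exon on the opposite strand, 13 of them over more than 10% of their length. Since the strand setting is not given in the sources used here, it is not known whether the quantification could tell reads of such pairs apart.

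A second quantification of the same reads, deposited as a separate transcript table, ordered the members similarly, with a Spearman's rho of 0.88 over 158 genes that share reads. It gave higher TPM for 133 members and lower TPM for 25, with a median log2 difference of 0.31, against 0.43 for the other coding genes. The difference passed 1 (log2) in 24 members, or 15.2%, all higher in the second, and in 1153 of the other genes, or 16.7%.

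Zfp180 differed most. It had 125, 116 and 271 TPM in libraries 1, 2 and 3 in the second quantification, against 2.35, 4.15 and 6.40 TPM in the first. A mean of 97.6% of the second value sat on Zfp180-203, an 827-base transcript classed as nonsense-mediated decay, with 2139, 2750 and 3889 estimated counts, against 2.80, 5.35 and 4.13 expected counts in the first. By the mean over libraries Zfp180 was the highest member in the second quantification, at 171 ± 87 TPM (SD, n = 3), and below the median member in the first. Zfp263, at 106 ± 25 TPM in the second (SD, n = 3), was higher than Zfp180 in library 1, and the spreads overlap. Zfp280b had 13.3, 3.83 and 18.7 TPM in the second, against 1.92, 0.71 and 2.80 in the first, on the same coding transcript. Zfp444 averaged 19.7 TPM in the second and 4.42 TPM in the first. Zfp970 averaged 30.2 TPM in the second and 7.11 TPM in the first, and Zfp260 averaged 9.44 TPM in the second and 2.25 TPM in the first. Of these 5, only Zfp970 shared over 25% of its words with other genes. Zfp263 averaged 106 TPM in the second and 115 TPM in the first.

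**Figure D3:**
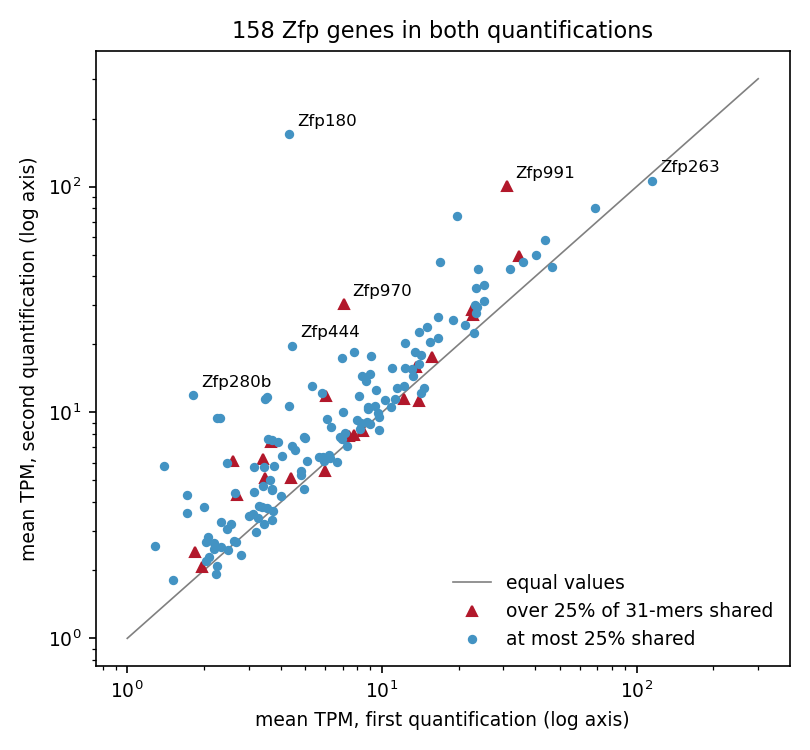
Mean TPM over 3 libraries in the second (y axis) and first (x axis) deposited quantification, both log axes, for 158 Zfp genes; the line marks equal values. Triangles share over 25% of 31-base words with another gene; Zfp180 lies farthest from the line, at 171 TPM in the second and 4.30 TPM in the first.

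Chromatin RNA holds unspliced and partly processed transcripts, and the annotation gives many genes transcripts without a coding class. The median member had 24.0% ± 1.6 of its TPM on transcripts that were not protein_coding, against 42.0% ± 0.3 for the other coding genes (SD over library medians, n = 3). By expected counts in place of TPM the medians were 5.90% ± 0.39 and 20.2% ± 0.2, and by the second quantification 30.2% ± 1.3 and 51.0% ± 1.0 (SD, n = 3 each). Fewer members had such a transcript annotated at all, 118 of 158 (74.7%) against 6050 of 6905 (87.6%). Among genes that had one, the medians were 34.3% ± 1.0 for members and 47.1% ± 0.2 for the other genes (SD, n = 3). A retained_intron transcript was annotated in 84 members (53.2%) and 4783 others (69.3%), and among these the medians were 39.4% ± 0.9 and 51.1% ± 0.1 (SD, n = 3). Members with the KRAB pattern had a median of 9.50% ± 2.17 and members without it 30.9% ± 2.5 (SD, n = 3). This last pair was not restricted to genes with such a transcript annotated. Members without one, such as the KRAB genes Zfp992 and Zfp869 with 1 transcript each, enter it at 0% by annotation. A difference in annotation cannot be told apart here from one in the RNA.

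For 34 members, or 21.5%, the transcript with the highest mean TPM was not protein_coding, against 2167 of the other coding genes, or 31.4%. It was a retained_intron transcript in 27, one classed as nonsense-mediated decay in 5 and a processed_transcript in 2. By the second quantification 54 members had such a main transcript, and 30 of the 34 were among them. By transcript expected counts the number was 22, with 19 of the 34 among them.

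**Figure D4:**
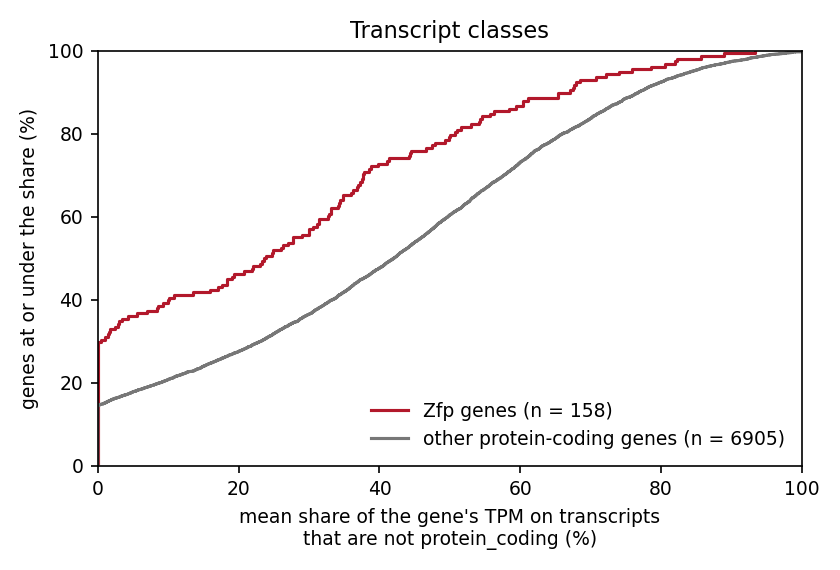
Cumulative percent of genes (y axis) against the mean share of TPM on transcripts that are not protein_coding (x axis), for 158 Zfp genes (red) and 6905 other protein-coding genes (grey). The Zfp curve runs above the other, with 20.3% of Zfp genes and 39.5% of the others over a share of 50%.

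Zfp865 had the highest share, 93.0%, 94.1% and 92.9% in libraries 1, 2 and 3, and its transcript Zfp865-205 took 71.6% of its TPM. An exon of Zfp784 on the opposite strand covers part of the gene, 20.7% of its exon length. Zfp326 had 91.0%, 80.9% and 95.1%, Zfp945 had 84.5%, 85.5% and 87.0%, and Zfp410 had 85.1%, 75.4% and 85.5%. Zfp384 had 89.1% and 88.0% in libraries 1 and 2 and 69.6% in library 3, the lowest of its libraries. At the other end, Zfp655, Zfp991, Zfp992, Zfp993 and Zfp516 had 0% in every library of both quantifications, as had others such as Zfp871 and Zfp292. Only 118 of 158 members had such a transcript annotated, and a gene without one has 0% by annotation alone. Zfp992, for example, has 1 annotated transcript, a coding one.

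Most members varied by less than a doubling between libraries. The median SD of log2 CPM over libraries was 0.19 for members and 0.23 for the other coding genes, and a range over 1 was seen in 3 members (1.90%) and 469 others (6.79%). Spread beyond the trend for genes of like abundance was tested with edgeR's quasi-likelihood F ratio. No gene passed a Benjamini-Hochberg adjusted p of 0.05 among 13309 tested (0%), and so 0 of 158 members did. At an unadjusted p under 0.05, 655 of all tested genes were found (4.92%) and 1 of the 158 members (0.63%). DESeq2 marked 96 of 23976 genes as dispersion outliers (0.4%) and 0 members. Counts were also simulated for 13016 genes, each with the dispersion of the trend and none of its own. Genes to change were drawn from those with a mean count of at least 100. The test then found 55 of 100 genes changed 4-fold in 1 library and 100 of 100 changed 8-fold. Recovery of such changes in the measured libraries was not tested.

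The widest member was Zfp280b, with 251, 84 and 220 expected counts in libraries 1, 2 and 3, a range of 1.66 in log2 CPM (edgeR unadjusted p = 0.018, adjusted p = 0.92). Library 2 was low, and it was also low in the second quantification with 695 estimated counts beside 1782 and 2089. Zfp64 had 80, 220 and 161, a range of 1.37, with library 1 low. Zfp667 had 127, 229 and 317, a range of 1.10, also with library 1 low. Zfp943 had a range of 0.97 and Zfp777, with 71, 146 and 138, a range of 0.95. Zfp263 had a range of 0.89 at the highest count of any member, with an edgeR adjusted p of 0.99. Of the listed role genes and corepressor genes that were tested, 0 were called and 0 had an unadjusted p under 0.05 (edgeR).

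**Figure D5:**
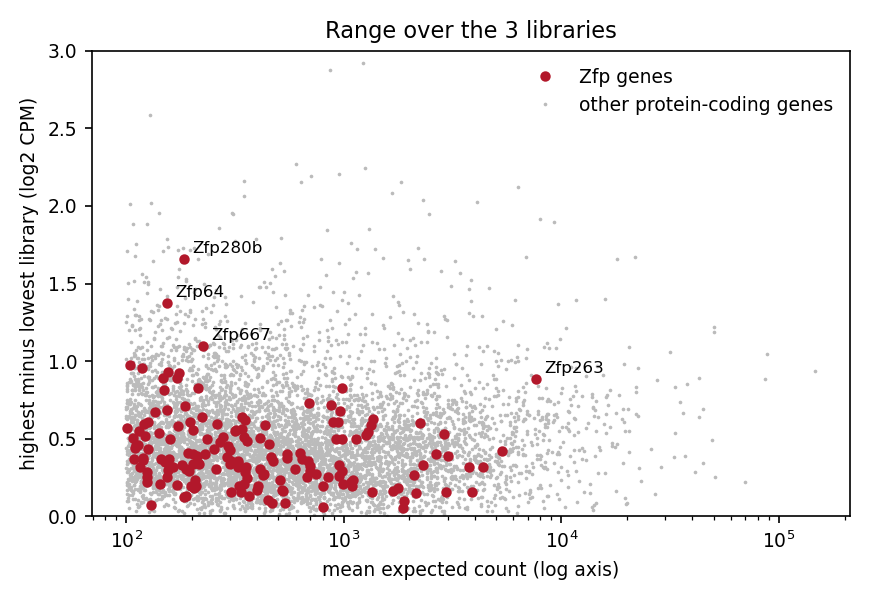
Highest minus lowest library in log2 CPM (y axis) against mean expected count (x axis, log) for 158 Zfp genes (red) and other protein-coding genes (grey); 4 other genes lie above the plotted range. Zfp280b at 1.66, Zfp64 at 1.37 and Zfp667 at 1.10 are the Zfp genes over 1.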

How the data were processed

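Chromatin-fraction RNA was measured in 3 libraries of 1 group. Per the file headers, the authors deposited a gene table and a first transcript table with expected counts, TPM and posterior mean TPM for each library. Estimated counts and TPM of a separate quantification are in the second transcript table, per the file headers. Credible bounds of TPM, a signal that is never negative, were deposited with the gene tables. Build mm10 and GENCODE M21 come from the deposited file notes. Tools, versions and strandedness were not given in the sources used here. The authors scaled TPM to a fixed total, so it carries no depth, whereas their expected counts carry the depth of 16205704 to 17033725 per library.

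Members, lists and tests were chosen with earlier results of these data known. Named genes were the 12 members highest in mean TPM, the lowest 3 and the 3 just outside, the extremes of each measure, the 3 largest clusters and the role lists. Genes named for read sharing, opposite-strand overlap, neighbour differences or a main transcript without fingers were picked after their values were seen. For background, the other coding genes at the same minimum were used.

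Expected counts were rounded and the spread between libraries tested with edgeR 4.0.16 in R 4.3.3: TMM factors, filterByExpr, a quasi-likelihood model of the mean alone, and p-values adjusted after Benjamini-Hochberg at 0.05. The test was also run on simulated data. Values in log2 CPM had a prior count of 0.5. DESeq2 1.42.0 served as an alternative. C2H2 and KRAB patterns were searched in proteins translated from M21 coding sequence, 31-base words were compared over M21 transcripts, and finger units were read from them. Python 3.11.15, numpy 2.4.6, pandas 2.3.3 and matplotlib 3.10.9 were used. Alternatives were other count minimums, the second quantification, posterior means, TPM without genes under 300 nt, other scalings, filters, gaps and patterns, and leaving out each replicate.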

Additional observations from a re-analysis of the deposited data

How the results depend on the processing

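No paired analysis was possible because all libraries belong to 1 group. The group held 207 genes at a minimum of 50, 109 at 200 and 232 by the second quantification, and 155 to 165 when a replicate was left out. The median TPM of the Zfp genes was 20.4 when rescaled without genes under 300 nt, which removes the share of short genes by construction, and 4.67 to 7.10 without 1 replicate. Without 1 replicate the edgeR spread test called 0 to 49 of all genes, 17 without replicate 1, 49 without replicate 2 and 0 without replicate 3. With no filter it called 117, and DESeq2 marked 96; the cause was not tested. No Zfp gene was called under any of these settings. The median SD of log2 CPM was 0.153 to 0.181 without 1 replicate. The median share of TPM on transcripts that are not protein_coding was 30.2% by the second quantification and 5.90% by transcript expected counts, and the number of genes with such a main transcript was 54 and 22 by these; the causes were not tested. Of the 68 named members, 27 moved by more than their SD under the second quantification, 3 under posterior mean TPM and 68 when rescaled, all of these 68 upward. The median deviation of the Zfp genes in library 2 turned to -0.03 without replicate 1. With 3 libraries, single outlying values were not tested.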
